A study of Mus musculus with 12 samples.

Results

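CXCR3 and its chemokine ligands comprise 4 genes of the deposited count table, chosen by symbol as Cxcl9, Cxcl10, Cxcl11 and Cxcr3, of 77175 genes listed. CXCR3 is a G protein-coupled chemokine receptor carried mainly by activated and memory T cells and by NK cells. Its ligands CXCL9, CXCL10 and CXCL11 are small secreted proteins that interferon gamma induces in many cell types, myeloid, endothelial and tumor cells among them, and they draw CXCR3-bearing cells along their gradient. In tumors the system is known for bringing CD8+ T cells into the tissue. Cxcl11 carries a frameshift in the C57BL/6 strain, so that its transcript encodes no complete chemokine there. B16 melanoma is of that strain, while NOD-SCID mice are not.

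Messenger RNA was sequenced in bulk in 12 libraries, 3 in each of 4 groups. The groups were OVA-labelled T cells, B16-F10-labelled T cells, OVA-labelled melanoma cells and B16-F10-labelled melanoma cells. The host in every group was the NOD-SCID mouse, which has no functional T and B cells of its own and keeps myeloid, stromal and endothelial cells. The tumors were grown from B16-F10-OVA melanoma cells, which express ovalbumin from a lentiviral vector with the EF1A promoter, or from B16-F10 cells, and both lines carried the calcium reporter GCaMP6s under the same kind of promoter. Every mouse had received OT-1 CD8+ T cells, whose transgenic receptor recognises an ovalbumin peptide, after activation with anti-CD3/anti-CD28 Dynabeads. Tumors were taken 2 days later, T cells were selected with CD8 beads and melanoma cells by FACS for GCaMP6s. No group lacks transferred T cells. Nothing in the labels ties a library to its own mouse. The p-values given here thus reflect differences among libraries that could be technical replicates.

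Library totals ran from 15494683 to 33263730 counts. The 16 T cell markers summed to 1103 to 1112 CPM (each count scaled to a common library total) in OVA-labelled T cells and 1197 to 1209.6 CPM in B16-F10-labelled T cells. The 12 endothelial markers summed to more than that in the same libraries, 10707 to 10759 CPM in OVA-labelled T cells and 11338 to 11465.5 CPM in B16-F10-labelled T cells. The 10 fibroblast markers summed to 5447 to 5537 CPM in OVA-labelled T cells and 6030 to 6124 CPM in B16-F10-labelled T cells. Markers of several cell types were thus present in the bead-selected libraries, which are called the T cell fraction here after their label. The 12 melanoma markers summed to 11885 to 11897 CPM in OVA-labelled melanoma cells and 27551 to 27633 CPM in B16-F10-labelled melanoma cells. In bulk samples such as these, fewer cells of a type and less RNA per cell cannot be told apart.

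The bases upstream of the 2 ligand genes with the highest counts are shown because their transcripts changed together in the T cell fraction and apart in the melanoma fraction. Each sequence is the 250 bases before the annotated start, from RefSeq on build GRCm38.p6, read 5′ to 3′ on the minus strand. Capitals mark matches to the interferon-stimulated response element (ISRE) core, which reads GAAA, any 2 bases and GAAA, and to the kappa B consensus, searched with the interferon gamma activated site TTCNNNGAA on both strands.
Cxcl9, chr5:92328080-92328329: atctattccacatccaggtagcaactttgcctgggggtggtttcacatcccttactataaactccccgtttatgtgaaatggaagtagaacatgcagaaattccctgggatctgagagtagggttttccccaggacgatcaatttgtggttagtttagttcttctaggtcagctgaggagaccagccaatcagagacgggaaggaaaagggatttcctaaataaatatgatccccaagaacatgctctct
Cxcl10, chr5:92348890-92349139: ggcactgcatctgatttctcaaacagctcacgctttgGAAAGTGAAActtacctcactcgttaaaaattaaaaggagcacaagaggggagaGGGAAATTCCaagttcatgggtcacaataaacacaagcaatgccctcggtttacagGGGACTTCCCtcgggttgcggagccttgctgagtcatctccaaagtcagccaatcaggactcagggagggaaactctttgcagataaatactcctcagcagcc
The Cxcl10 window held 1 ISRE core, GAAAGTGAAA, from 213 to 204 bases before the start. It also held 2 kappa B matches, GGGAAATTCC from 159 to 150 and GGGACTTCCC from 103 to 94 bases before the start, and no interferon gamma activated site. The Cxcl9 window held none of these letters in either direction, which says nothing of the factors themselves. Over 32851 windows of this length, 2.98% held the ISRE core, 3.90% the kappa B consensus and 7.02% the interferon gamma activated site. No motif overlapped another in the Cxcl10 window.

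The first comparison asks how the receptor and ligand transcripts of the T cell fraction differed with the ovalbumin label of the tumor. All 3 ligand transcripts rose, between 10.4-fold and 14.8-fold, and the receptor transcript fell 2.41-fold. Each of the 4 genes passed the test, against 46.1% of the 16536 genes tested in this comparison, 23.7% higher and 22.4% lower. Each also had CPM values that did not overlap between the groups, as did 54.5% of the genes tested. Among the genes called, 51.3% were higher with TMM scaling, 38.7% with library totals and 65.3% with scaling on the T cell markers, while the 4 genes kept their directions under each.

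Cxcl9 stood at 1484, 1483 and 1513 CPM in OVA-labelled T cells, against 116, 112 and 110.1 CPM in B16-F10-labelled T cells. The libraries of a group lay close together and the groups far apart. The mean was 1493 ± 17.0 CPM in OVA-labelled T cells and 113 ± 3.30 CPM in B16-F10-labelled T cells (SD, n = 3 each). Its log2 fold change was 3.78 (SE 0.0184, adjusted p = 3.14e-38, edgeR quasi-likelihood test with Benjamini-Hochberg adjustment over all genes tested), or 13.8-fold. Among the 11215 tested genes averaging at least 5 CPM in the higher group, it ranked 10 from the highest fold change.

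Cxcl10 stood at 1610.3, 1628 and 1622 CPM in OVA-labelled T cells, against 160.4, 166 and 158 CPM in B16-F10-labelled T cells. Again no library of one group came near the other. The means were 1620.1 ± 9.10 CPM in OVA-labelled T cells and 162 ± 3.88 CPM in B16-F10-labelled T cells (SD, n = 3 each). This gave a log2 fold change of 3.38 (SE 0.0162, edgeR adjusted p = 2.91e-38), or 10.4-fold, at rank 18 from the highest. The exons of Cxcl10 share 133 bases with those of Art3, an ADP-ribosyltransferase gene on the other strand, in GENCODE M21, and without a stated strand setting reads from the shared bases cannot be told apart. Art3 had 53.2 ± 0.580 CPM in OVA-labelled T cells and 56.2 ± 2.80 CPM in B16-F10-labelled T cells, a log2 difference of -0.02 (SE 0.0397, edgeR adjusted p = 0.701).

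Cxcl11 was far less abundant per kilobase than the other ligand transcripts. It had 715, 515 and 678 counts in OVA-labelled T cells, or 29.5, 29.9 and 28.8 CPM, against 50, 38 and 20 counts in B16-F10-labelled T cells, or 2.59, 2.15 and 1.29 CPM. All libraries labelled OVA lay above all libraries labelled B16-F10, and the third B16-F10 library was the lowest of its group. edgeR gave a log2 fold change of 3.89 (SE 0.107, edgeR adjusted p = 3.7e-21), or 14.8-fold, at rank 9 from the highest. Its exons share 1582 bases with Gm2673, a pseudogene on the other strand that had 2 counts in all libraries together.

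Cxcr3, the receptor, ran the other way. It stood at 8.86, 8.89 and 9.54 CPM in OVA-labelled T cells, against 23.7, 21.7 and 23.2 CPM in B16-F10-labelled T cells. The highest library labelled OVA lay well below the lowest library labelled B16-F10. The mean was 9.10 ± 0.385 CPM in OVA-labelled T cells and 22.9 ± 1.05 CPM in B16-F10-labelled T cells (SD, n = 3 each). These rest on 593 counts in OVA-labelled T cells and 1201 in B16-F10-labelled T cells. The fitted log2 change was -1.27 (SE 0.0712, edgeR adjusted p = 2.46e-14), at rank 70 from the lowest of the same 11215 genes.

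**Figure D1:**
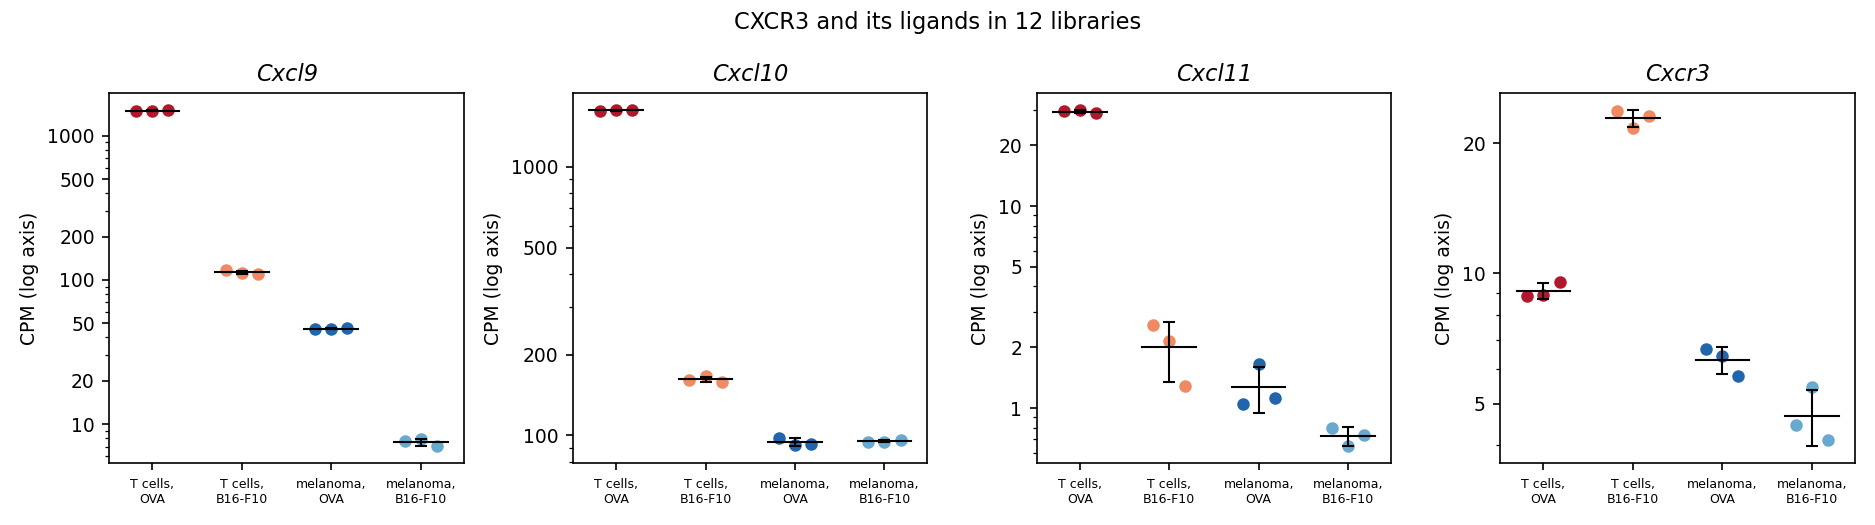
CPM (log axis, scaled for each gene) of the 4 genes in 12 libraries, with points for libraries and black lines for the mean ± SD of 3. OVA-labelled T cells are highest for each ligand, Cxcr3 is highest in B16-F10-labelled T cells, and the Cxcl10 values of the melanoma groups overlap.

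The receptor was next set against the T cell markers of the same library. This ratio removes the share of T cell RNA only for Cxcr3 reads that come from T cells, and other sources were not separated. Cxcr3 had 7.97, 8.06 and 8.62 counts per 1000 counts of the 16 T cell markers in OVA-labelled T cells, against 19.8, 17.9 and 19.2 in B16-F10-labelled T cells. The groups did not overlap on this scale either. The difference of mean log2 ratios was -1.21 (exact permutation test, two-sided, p = 0.1, the smallest that 3 libraries against 3 allow). It was -1.42 against the Cd3 genes alone and -1.57 against the Cd8 genes alone. The markers themselves moved in both directions, with 7 of 16 higher, 5 lower and 4 not called (median log2 change 0.03). Cd3e, a subunit of the T cell receptor complex, had 75.1 ± 3.51 CPM in OVA-labelled T cells and 60.9 ± 1.02 CPM in B16-F10-labelled T cells.

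**Figure D2:**
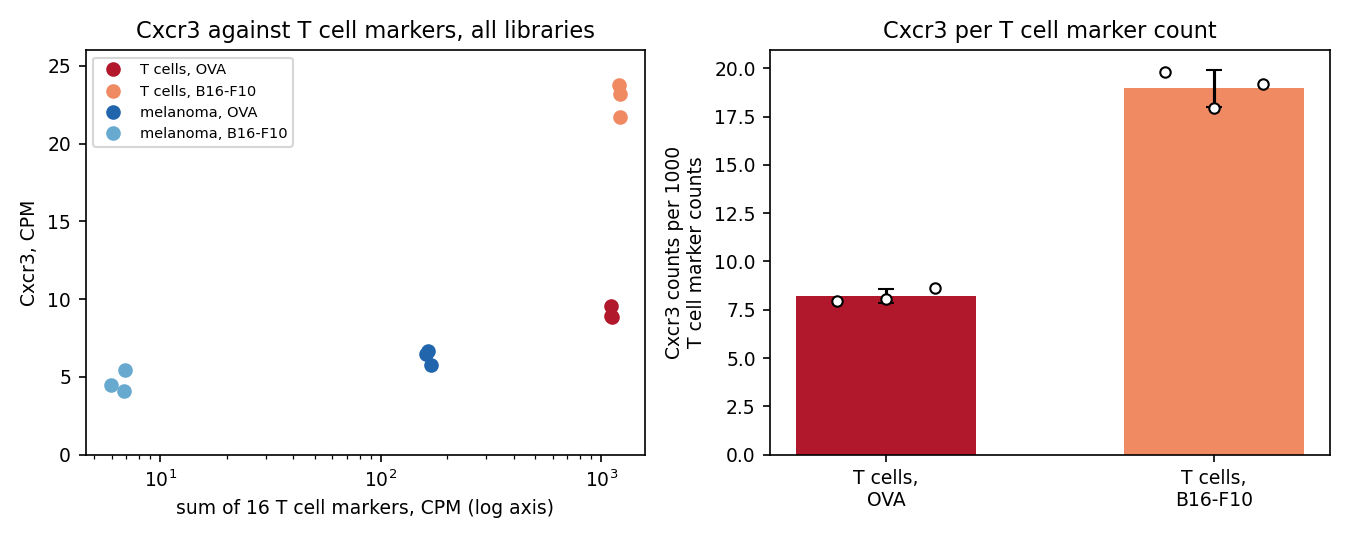
Left, Cxcr3 CPM against the summed CPM of 16 T cell markers (log axis) in 12 libraries. Right, Cxcr3 counts per 1000 T cell marker counts in the T cell fraction, with bars for means, error bars for SD and points for 3 libraries, at 8.22 ± 0.353 in OVA-labelled T cells and 19.0 ± 0.958 in B16-F10-labelled T cells.

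Markers of other cell types that could carry ligands or receptor were read in the same libraries. The 14 macrophage and monocyte markers summed to 864 to 869 CPM in OVA-labelled T cells and 836 to 841 CPM in B16-F10-labelled T cells, with 2 higher, 9 lower and 3 not called. The 8 dendritic cell markers summed to 109 to 114 CPM in OVA-labelled T cells and 146 to 149 CPM in B16-F10-labelled T cells, with 1 higher and 5 lower. Of the 12 endothelial markers 4 were higher and 6 lower, of the 10 fibroblast markers 1 was higher and 6 lower, and all 11 melanoma markers tested were lower. The neutrophil and NK cell lists had their sums up in OVA-labelled T cells, as had the macrophage and monocyte list by a smaller proportion. The 6 neutrophil markers summed to 72.3 to 75.8 CPM in OVA-labelled T cells and 40.2 to 43.4 CPM in B16-F10-labelled T cells, with 5 higher and 1 not called. Among them Ly6g, at few counts, had 1.07 ± 0.279 CPM in OVA-labelled T cells and 0.0995 ± 0.0885 CPM in B16-F10-labelled T cells. Its log2 fold change was 3.49 (SE 0.526). The rest of the list changed less. Ratios of mean CPM, OVA over B16-F10, were 1.35 for S100a8, 1.74 for Csf3r, 1.75 for S100a9 and 2.48 for Cxcr2. Retnlg went the other way, at 0.73. The 5 NK cell markers summed to 161 to 169 CPM in OVA-labelled T cells and 63.8 to 70.0 CPM in B16-F10-labelled T cells, most of it Nkg7, a granule gene that CD8+ T cells also express, and 2 of the 3 tested were higher. The part of any of these cell types in the ligand or receptor values was not tested.

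Genes of the pathways that induce the ligands, with feedback inhibitors and downstream targets among them, were then read from lists. Of the 12 interferon gamma pathway genes, 10 rose and 2 fell in OVA-labelled T cells, the same counts under all 4 scalings tried, with a median log2 change of 0.81 against -0.01 over all genes tested. Ifng, the cytokine itself, stood at 315 ± 7.76 CPM in OVA-labelled T cells and 12.8 ± 0.790 CPM in B16-F10-labelled T cells (log2 fold change 4.67, SE 0.0368, edgeR adjusted p = 1.36e-33). Irf1, a transcription factor that acts on the ligand promoters, stood at 1433 ± 11.4 CPM in OVA-labelled T cells and 367 ± 8.43 CPM in B16-F10-labelled T cells (log2 fold change 2.02, SE 0.0151). Irf8, a myeloid and lymphoid transcription factor of the same family as Irf1, rose by 1.45 on the log2 scale and Socs3, a feedback inhibitor of cytokine signalling, by 0.68.

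Of 13 type I interferon pathway genes tested, 11 rose and none fell with TMM scaling, and 1 fell with library totals. The antiviral gene Rsad2 rose by 1.40 on the log2 scale, Ifit2 by 1.16, the transcription factor Stat2 by 0.89 and Isg15 by 0.69. Of 12 genes of NF-kB and TNF, which also act on the Cxcl10 promoter, 8 rose, none fell and 4 were not called, and 11 rose with scaling on the T cell markers. The cytokine genes Il1b and Tnf rose by 1.28 and 1.19 on the log2 scale, while Nfkbia, an NF-kB inhibitor, rose by 0.25 and the TNF receptor gene Tnfrsf1b by 0.31. These counts stand beside a background of 23.7% of all genes called higher.

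Genes that regulate CXCR3 or signal below it showed no common direction. Of 16 such genes, 5 rose, 8 fell and 3 were not called with TMM scaling, 3 rose and 10 fell with library totals, and 7 rose and 7 fell with scaling on the T cell markers. The 2 T-box transcription factors of effector T cells that act on Cxcr3 moved apart. Tbx21, which encodes T-bet, had 12.9 ± 1.05 CPM in OVA-labelled T cells and 5.64 ± 0.559 CPM in B16-F10-labelled T cells (log2 fold change 1.24, SE 0.0998, edgeR adjusted p = 5.04e-11). Eomes had 12.3 ± 0.156 CPM in OVA-labelled T cells and 27.8 ± 0.296 CPM in B16-F10-labelled T cells (log2 fold change -1.12, SE 0.0597, edgeR adjusted p = 8.8e-15). Cxcr3 and Eomes fell while Tbx21 rose, beside 22.4% of all genes called lower and 23.7% called higher. Whether either factor had a part in the Cxcr3 values was not tested. Gnai2, an inhibitory G protein subunit used by chemokine receptors, fell by 0.21 on the log2 scale, and Itgb2, an integrin chain of leukocytes, rose by 0.35.

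The list of scavenging, cleaving and other ligand-binding genes, the last including Pf4 and Sdc4, also moved both ways at the transcript level, 3 higher and 4 lower of 8 tested. Ackr3, a scavenging receptor that binds CXCL11, had 48.8 ± 1.28 CPM in OVA-labelled T cells and 65.3 ± 1.38 CPM in B16-F10-labelled T cells (log2 fold change -0.36, edgeR adjusted p = 5.58e-09). Dpp4, a peptidase that trims the ligands at their amino end, had 11.1 ± 0.316 CPM in OVA-labelled T cells and 15.8 ± 1.65 CPM in B16-F10-labelled T cells (log2 fold change -0.45, edgeR adjusted p = 3.61e-05). Ackr1, a chemokine-binding receptor of venular endothelium and red cells, had 38.7 ± 0.479 CPM in OVA-labelled T cells and 12.4 ± 0.731 CPM in B16-F10-labelled T cells. Mmp12, the macrophage elastase, had 2.64 ± 0.186 CPM in OVA-labelled T cells and 11.9 ± 0.767 CPM in B16-F10-labelled T cells. Mmp9, a gelatinase, rose by 0.77 on the log2 scale.

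A list of other T cell chemokine receptors also holds S1pr1, a sphingosine phosphate receptor for T cell egress. Of its 13 genes tested, 4 rose, 3 fell and 6 were not called with TMM scaling, and S1pr1 was one of those that fell, by 0.15 on the log2 scale. Ccr1, a receptor for inflammatory CC chemokines, rose by 1.57 on the log2 scale, Cxcr4 rose by 0.33, and Ccr7, the lymph node homing receptor, fell by 0.27. Of 10 other CXC chemokine genes tested, 5 rose and 3 fell. Among them the neutrophil attractants Cxcl1, Cxcl2 and Cxcl3 rose by 0.58, 1.06 and 1.63 on the log2 scale, and Cxcl16, the ligand of CXCR6, by 0.71. Of 5 tested genes beside the ligand genes on the chromosome, Sdad1, Nup54 and Scarb2 rose by 0.34, 0.31 and 0.18, Naaa fell by 0.28 and Art3 was not called.

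**Figure D3:**
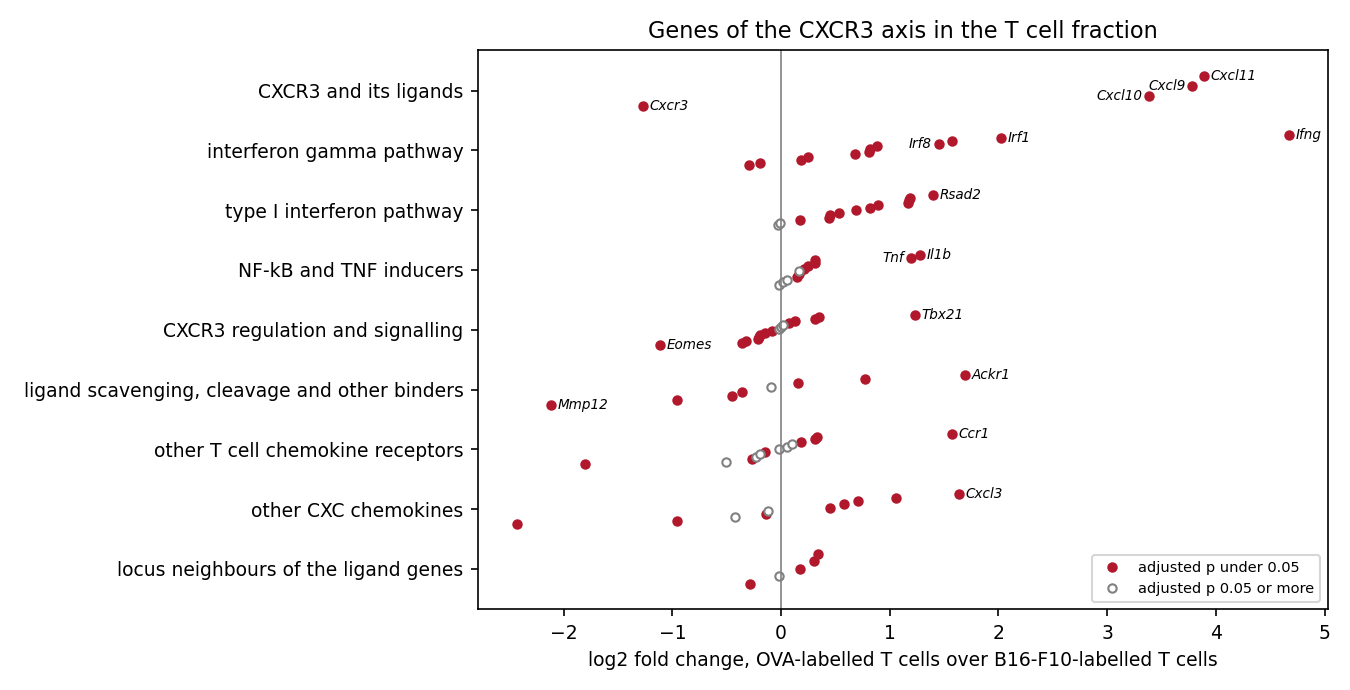
Log2 fold change, OVA-labelled T cells over B16-F10-labelled T cells, for the 4 genes and for 8 lists of related genes, with 1 point per gene tested. The 3 ligand genes lie at 3.38 to 3.89, Ifng at 4.67 and Cxcr3 at -1.27.

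In the melanoma fraction the ligands did not move together. All 4 genes passed the test with TMM scaling, as did 79.4% of the 17418 genes tested, 42.0% higher and 37.4% lower. CPM values did not overlap for Cxcl9, Cxcl11 and Cxcr3, as for 82.6% of the genes tested, and they overlapped for Cxcl10. Scaling matters here, because the median log2 change of all genes was 0.04 with TMM, -0.13 with library totals and 1.09 with scaling on the melanoma markers. Of the genes called, 52.9% were higher with TMM and 96.0% with the melanoma markers.

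Cxcl9 stood at 45.8, 45.8 and 46.4 CPM in OVA-labelled melanoma cells, against 7.61, 7.88 and 7.02 CPM in B16-F10-labelled melanoma cells. The groups were widely separated. The log2 fold change was 2.78 (SE 0.0561, edgeR adjusted p = 2.4e-22), or 6.86-fold. It was higher in OVA-labelled melanoma cells under every scaling tried.

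Cxcl10 stood at 98.2, 92.0 and 93.1 CPM in OVA-labelled melanoma cells, against 94.8, 94.5 and 96.3 CPM in B16-F10-labelled melanoma cells. On this scale 2 of the 3 libraries labelled OVA lay below all of those labelled B16-F10 and the third lay above them. Its log2 fold change was 0.16 with TMM (SE 0.0283, edgeR adjusted p = 1.49e-05), and it turned to -0.00383 with library totals (adjusted p = 0.905). With scaling on the melanoma markers it was 1.21 (adjusted p = 2.76e-21). Relative to the median of all genes tested, it was 0.12 with the filter on low counts and -0.12 without it. A change of scaling shifts that median by the same amount. Art3, whose exons overlap those of Cxcl10, rose by 2.09 on the log2 scale in this fraction (SE 0.0793, edgeR adjusted p = 5.75e-17). The part of Art3 reads in the Cxcl10 counts was not tested.

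Cxcl11 had 35, 31 and 28 counts in OVA-labelled melanoma cells, or 1.05, 1.65 and 1.13 CPM, against 17, 15 and 14 counts in B16-F10-labelled melanoma cells, or 0.799, 0.646 and 0.739 CPM. The groups did not overlap, and the level was near 1 CPM in both. This gave a log2 fold change of 0.94 (SE 0.278, edgeR adjusted p = 0.00398).

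Cxcr3 stood at 6.67, 6.45 and 5.79 CPM in OVA-labelled melanoma cells, against 4.47, 5.47 and 4.12 CPM in B16-F10-labelled melanoma cells. The groups lay close without overlapping. edgeR gave a log2 fold change of 0.59 (SE 0.119, edgeR adjusted p = 9.98e-05), or 1.51-fold.

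Markers of other cells also differed between the melanoma groups. The 16 T cell markers summed to 159.7 to 168 CPM in OVA-labelled melanoma cells and 5.97 to 6.89 CPM in B16-F10-labelled melanoma cells. The 14 macrophage and monocyte markers summed to 2904 to 2932 CPM in OVA-labelled melanoma cells and 16.3 to 17.1 CPM in B16-F10-labelled melanoma cells. All 16, all 14, all 12 endothelial and all 10 fibroblast markers were called higher in OVA-labelled melanoma cells, and 11 of the 12 melanoma markers were lower with TMM. Of 4 B cell markers tested, 1 was higher and 2 were lower. Over all genes tested, 42.0% were called higher and 37.4% lower. The part of any of these cell types in the ligand values was not tested. Of the 16 T cell markers, 5 stood at 0 counts in B16-F10-labelled melanoma cells, namely Cd3e, Cd2, Cd6, Trac and Trbc2. The others had counts there, Cd8b1 among them, and the sum was mostly Lck, at 4.05 ± 0.334 CPM. Cxcr3 had 300 counts in that group, at 4.68 ± 0.703 CPM (SD, n = 3), or 714 ± 101 counts per 1000 T cell marker counts.

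The interferon genes of the melanoma fraction were also split. Of 12 interferon gamma pathway genes, 9 rose and 3 fell with TMM, beside 42.0% higher and 37.4% lower over all genes tested. Irf1 had 172 ± 2.21 CPM in OVA-labelled melanoma cells and 496 ± 10.2 CPM in B16-F10-labelled melanoma cells (log2 fold change -1.36, SE 0.0186, edgeR adjusted p = 1.3e-25). It kept this direction under all 4 scalings. Irf8, Socs3 and Jak2 rose by 2.86, 2.71 and 2.64 on the log2 scale. Ifng had 1.34 ± 0.122 CPM in OVA-labelled melanoma cells and 0 counts in B16-F10-labelled melanoma cells.

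Most other lists rose in that fraction, with the immune and stromal markers given above. Of 12 NF-kB and TNF genes 11 rose and 1 fell, of the 13 genes in the list of other T cell chemokine receptors, S1pr1 included, 12 rose and 1 fell, and all 10 other CXC chemokines tested rose. Cxcl2, for example, had 647 ± 6.48 CPM in OVA-labelled melanoma cells and 2.09 ± 0.305 CPM in B16-F10-labelled melanoma cells. Of 13 type I interferon genes 8 rose and 4 fell with TMM, and all 13 rose with scaling on the melanoma markers. The shares over all genes tested were 42.0% higher and 37.4% lower with TMM. With the melanoma markers, 15992 of 17418 genes were called and 96.0% of those called were higher. Of 16 genes regulating CXCR3 or signalling below it, 14 rose and 2 fell with TMM, while Tbx21 had 1.51 ± 0.480 CPM in OVA-labelled melanoma cells and 6 counts in all in B16-F10-labelled melanoma cells. Of 8 scavenging, cleaving and other binding genes tested 7 rose, Ackr3 by 5.43 on the log2 scale.

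The OVA effects of the fractions were compared with each other in 1 fit over all 12 libraries. The difference of log2 effects, T cell fraction minus melanoma fraction, was called for all 4 genes, as for 69.0% of the 18562 genes tested, 27.7% higher and 41.3% lower, with a median of -0.16. It was 3.21 for Cxcl10 (SE 0.0332, edgeR adjusted p = 8.48e-31) and 2.97 for Cxcl11 (SE 0.337, adjusted p = 1.69e-08). For Cxcl9, which rose in both fractions, it was 1.00 (SE 0.0693, adjusted p = 1.16e-12). For Cxcr3, which fell in the T cell fraction and rose in the melanoma fraction, it was -1.86 (SE 0.134, adjusted p = 2.37e-12).

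The fractions themselves were also compared within each tumor label, using the same libraries as above. With the label OVA, all 4 genes were higher in T cells than in melanoma cells, where 77.5% of genes were called, 37.3% higher and 40.2% lower. No CPM values of the 4 genes overlapped, as for 79.0% of genes. Cxcl9 was 35.6-fold higher in OVA-labelled T cells (log2 5.15, SE 0.0206), Cxcl11 26.1-fold (log2 4.71, SE 0.121) and Cxcl10 18.7-fold (log2 4.23, SE 0.0193). Cxcr3 was 1.58-fold higher (log2 0.66, SE 0.0936, edgeR adjusted p = 6.01e-07).

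With the label B16-F10, all 4 genes were again higher in T cells, where 85.9% of genes were called, 45.5% higher and 40.4% lower. CPM values again did not overlap, as for 86.5% of genes. Cxcl9 was 17.8-fold higher in B16-F10-labelled T cells (log2 4.15, SE 0.0435) and Cxcr3 5.74-fold (log2 2.52, SE 0.0900). Cxcl11 was 3.34-fold higher (log2 1.74, SE 0.248) and Cxcl10 2.02-fold (log2 1.01, SE 0.0253). Cxcr3 therefore had the second largest fold of the 4 genes under this label and the smallest under the label OVA.

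**Figure D4:**
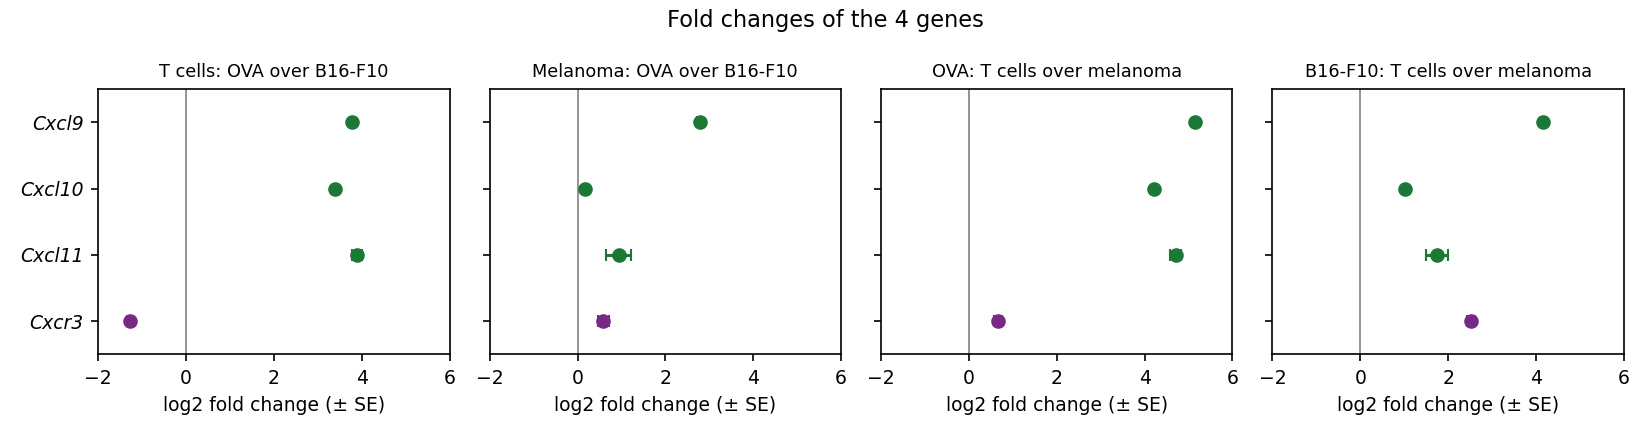
Log2 fold change ± SE (edgeR) of the 4 genes in 4 comparisons, each naming its numerator first, with ligands in green and the receptor in purple. The melanoma panel shows 2.78 for Cxcl9 and 0.16 for Cxcl10 with TMM, the value that turned to -0.00383 with library totals.

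In the order of levels, Cxcl9 and Cxcl11 were highest in OVA-labelled T cells, followed by B16-F10-labelled T cells, OVA-labelled melanoma cells and B16-F10-labelled melanoma cells. The middle pair, B16-F10-labelled T cells over OVA-labelled melanoma cells, differed by 1.37 (SE 0.0287) for Cxcl9, 0.84 (SE 0.0246) for Cxcl10 and 0.81 (SE 0.212, edgeR adjusted p = 0.00134) for Cxcl11 on the log2 scale. For Cxcl11 the CPM of these neighbours overlapped, at 1.29 to 2.59 in B16-F10-labelled T cells and 1.05 to 1.65 in OVA-labelled melanoma cells. For Cxcl10 the T cell groups led in the same order and the melanoma groups overlapped. Cxcr3 was highest in B16-F10-labelled T cells, followed by OVA-labelled T cells, OVA-labelled melanoma cells and B16-F10-labelled melanoma cells.

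Levels of different genes were compared per kilobase of their first GENCODE M21 transcript, 2889 bases for Cxcl9, 1094 for Cxcl10, 1581 for Cxcl11 and 1731 for Cxcr3. In OVA-labelled T cells the level was 1481 ± 8.32 CPM per kilobase for Cxcl10, 517 ± 5.89 for Cxcl9, 18.6 ± 0.376 for Cxcl11 and 5.26 ± 0.222 for Cxcr3. In B16-F10-labelled T cells it was 148 ± 3.55 for Cxcl10, 39.0 ± 1.14 for Cxcl9, 13.2 ± 0.608 for Cxcr3 and 1.27 ± 0.418 for Cxcl11. The receptor thus lay above Cxcl11 in B16-F10-labelled T cells and below it in OVA-labelled T cells. Cxcl10 was the most abundant ligand transcript in all 4 groups. Per kilobase, its ratio to Cxcl9 was 2.87 in OVA-labelled T cells with these lengths and 1.45 with the merged exons of all transcripts, and it led in each group with both.

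The mix of the ligands differed between the groups. Of the summed CPM per kilobase, Cxcl9 made up 25.6% in OVA-labelled T cells, 20.8% in B16-F10-labelled T cells, 15.5% in OVA-labelled melanoma cells and 2.89% in B16-F10-labelled melanoma cells. Cxcl10 made up 73.4% in OVA-labelled T cells, 78.6% in B16-F10-labelled T cells, 83.8% in OVA-labelled melanoma cells and 96.6% in B16-F10-labelled melanoma cells. Cxcl11 stayed under 1% in each. The count ratio of Cxcl10 to Cxcl9, which needs no scaling between libraries, was 1.09 ± 0.0131 in OVA-labelled T cells, 1.43 ± 0.0545 in B16-F10-labelled T cells, 2.05 ± 0.0797 in OVA-labelled melanoma cells and 12.7 ± 0.898 in B16-F10-labelled melanoma cells (SD, n = 3 each). B16-F10-labelled melanoma cells thus had a ligand pool that was almost wholly Cxcl10.

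**Figure D5:**
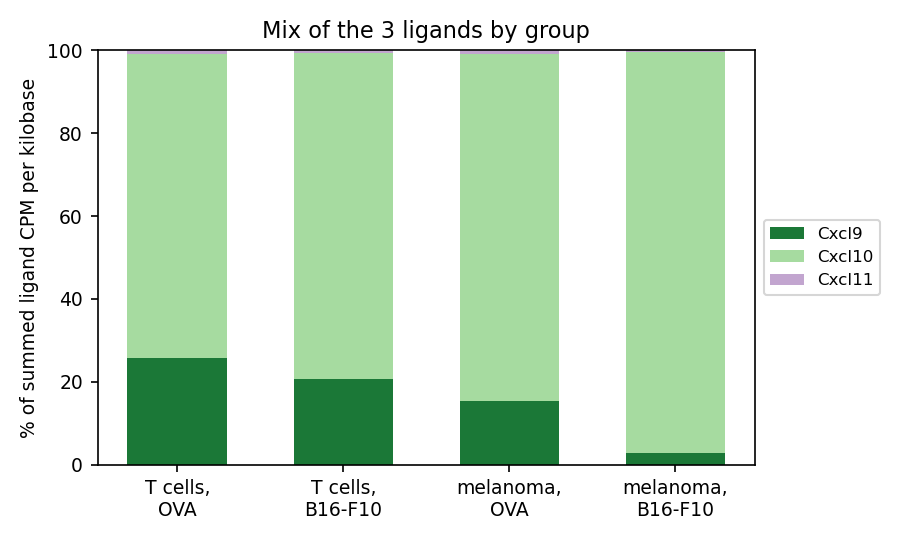
Share of each ligand in the summed CPM per kilobase of the 3 ligand genes, as the mean of 3 libraries in each of 4 groups. Cxcl9 makes up 25.6% in OVA-labelled T cells and 2.89% in B16-F10-labelled melanoma cells.

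The genes with patterns most like each of the 4 were found by the root mean square difference of centred log2(CPM + 0.5) over the 12 libraries, among 11618 genes, so that a smaller value means a closer match. Cxcl9 was nearest to Ubd (0.279), which encodes the ubiquitin-like protein FAT10, followed by Serpina3f (0.338), Prf1 (0.433), Klrc1 (0.501) and Tnfrsf9 (0.647). Cxcl10 was nearest to Cxcl11 (0.300), followed by Gzme (0.310), Sv2c (0.315), Gbp3 (0.420) and Serpinb9b (0.463). Cxcl11 was nearest to Gzme (0.221), a granzyme gene, followed by Cxcl10, Sv2c (0.340), Serpinb9b (0.376) and Gbp5 (0.542). Gzme averaged 11.5 CPM in OVA-labelled T cells and 0.668 CPM in B16-F10-labelled T cells. It averaged 0.259 CPM in OVA-labelled melanoma cells and 0.0157 CPM in B16-F10-labelled melanoma cells, and Sv2c was similarly low outside OVA-labelled T cells. At such levels the added 0.5 hides differences, so the matches to Gzme and Sv2c rest mainly on OVA-labelled T cells. Cxcr3 was nearest to Kbtbd11 (0.131), followed by Ikzf2 (0.236), Vps37b (0.263), Tcf7 (0.268) and Ly6g5b (0.303). Tcf7, a transcription factor of naive and memory T cells, averaged 15.2 CPM in OVA-labelled T cells, 62.1 in B16-F10-labelled T cells, 14.1 in OVA-labelled melanoma cells and 9.99 in B16-F10-labelled melanoma cells. These are descriptions over 12 libraries that share their groups.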

How the data were processed

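Poly-A RNA of 12 mouse libraries was sequenced. The authors deposited 1 table of raw counts per Ensembl gene, with no normalization. Alignment with HISAT2 2.0.5, counting with featureCounts 1.6.0 and build GRCm39 are named in the submitters' processing notes. The strand setting, the treatment of multimapping reads and the annotation release are not given in the sources used here. The table lists 77175 genes, 21805 without a symbol, and every count column was used. Ovalbumin and GCaMP6s transcripts were not analysed here.

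CPM divide counts by the library total. Tests used R 4.3.3 and edgeR 4.0.16: filterByExpr by group, TMM, quasi-likelihood F tests and Benjamini-Hochberg adjustment at 0.05. OVA effects were fitted on the 6 libraries of a fraction, other contrasts on all 12. SE were derived from the F statistic. The steps were tested on simulated counts. DESeq2 1.42.0 was an alternative. Within each group, replicates differed beyond counting noise, and no columns were identical. The excess was small, with a chi-square per gene of 1.51 to 1.77 between libraries, where counting noise alone gives about 1. It does not tell separate mice from technical replicates.

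The 4 genes and all lists were chosen with earlier results of these data known. Besides the 4 genes, the text names up to 4 genes of a list, taken by lowest adjusted p among those reaching 5 CPM, and always Ifng, Irf1, Tbx21, Dpp4, Ackr3 and Art3. Some genes that the rule names, most of them in the melanoma fraction, are not reported here. Cd3e, Cd2, Cd6, Trac, Trbc2, Cd8b1, Lck, Nkg7 and the neutrophil markers were named from the marker lists after their values were seen. Promoters came from RefSeq, and transcript lengths from GENCODE M21, a different build from that of the counts.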

Additional observations from a re-analysis of the deposited data

Results flagged for a closer look

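The OVA effect of each of the 4 genes differed between the T cell fraction and the melanoma fraction, tested as the difference of the 2 log2 effects in edgeR over 12 libraries. The difference, T cell fraction minus melanoma fraction, was 1.00 for Cxcl9, 3.21 for Cxcl10, 2.97 for Cxcl11 and -1.86 for Cxcr3. Such a difference was called for 69.0% of all genes tested.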

How the results depend on the processing

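Of 260 alternatives run for the 4 genes over 5 comparisons, 259 kept direction and side of the threshold. The exception was Cxcl10 in the melanoma fraction, at -0.00383 with library totals. In the T cell fraction, leaving out 1 library gave 3.77 to 3.81 for Cxcl9, 3.37 to 3.40 for Cxcl10, 3.68 to 4.12 for Cxcl11 and -1.31 to -1.24 for Cxcr3. Scaling on the melanoma markers gave 3.82 for Cxcl9, 1.21 for Cxcl10, 1.98 for Cxcl11 and 1.64 for Cxcr3 in the melanoma fraction. No count of called genes moved by over 1.5 times. The labels do not say what a shared replicate number means. The deviations of same-numbered libraries correlated above 0.1 in 2 of 12 pairs (r = 0.203 and 0.157). Both joined OVA-labelled T cells with OVA-labelled melanoma cells. The other same-numbered pairs ran from -0.0735 to 0.0718, and differently numbered pairs from -0.202 to 0.148. Pairing was not assumed in the main fits. A replicate block gave 7576 genes called in the T cell fraction and 13656 in the melanoma fraction, with no call of the 4 genes changed. Depth limits Cxcl11 most, at 14 to 50 counts per library outside OVA-labelled T cells.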
